A study of Mus musculus with 4 samples.

Results

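Heat shock chaperones were examined in whole mouse embryos at embryonic day 9.5 (E9.5) that lacked Cop1, the gene of an E3 ubiquitin ligase, and in control embryos. The set took every probe set whose only gene symbol belongs to the HSPA, HSPB, cytosolic HSP90, HSPD1/HSPE1, HSPH1, DNAJA, DNAJB, DNAJC or BAG families or to the heat shock factors HSF1, HSF2, HSF4 and HSF5. Hspa5, Dnajb9, Dnajb11 and Dnajc3, chaperones of the endoplasmic reticulum, were left out. This gave 170 probe sets of 74 genes, among 45037 probe sets tested and 18193 genes named from the platform annotation. RNA of 6 Cop1-null embryos was pooled, as was RNA of 6 control embryos, which were wild type (+/+) or heterozygous (+/-) for Cop1 and are titled wild type in the labels. Each pool was split into 2 portions and each portion was put on 1 Affymetrix array, so 4 arrays were compared. The portions are technical, and the p-values measure only the spread between portions of the same RNA pool. The labels name no treatment of the embryos other than lysis after dissection, and the strain and the making of the null allele were not described in them.

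The proteins of these families keep other proteins folded. HSP70 proteins (HSPA) bind unfolded stretches in cycles of ATP hydrolysis. J proteins (DNAJA, DNAJB and DNAJC) bring clients to HSP70 and start that hydrolysis, while HSP110 proteins and BAG proteins release the nucleotide. HSP90 matures kinases and receptors, small heat shock proteins (HSPB) hold unfolded clients without ATP, and HSPD1 with HSPE1 forms the folding chamber of mitochondria. Under heat or other protein damage the factor HSF1 binds heat shock elements, inverted repeats of the letters GAA, and switches on the inducible members, above all Hspa1a and Hspa1b. In the mid-gestation embryo many of these genes are active without stress.

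Hspa1a and Hspa1b were the members with the greatest difference, and their promoters are shown here. Both lie side by side on chromosome 17, and the sequences are those of RefSeq for build GRCm38.p6. The 250 bases before the start of Hspa1a (chr17:34972157-34972406, minus strand) and of Hspa1b (chr17:34959239-34959488, minus strand) differ at 3 positions. Capitals mark matches to the element of 2 inverted units, GAANNTTC or TTCNNGAA, whose first base lies at position -104 in both genes. Only exact letters were searched for, so longer elements with a mismatched unit would stand unmarked.
Hspa1a: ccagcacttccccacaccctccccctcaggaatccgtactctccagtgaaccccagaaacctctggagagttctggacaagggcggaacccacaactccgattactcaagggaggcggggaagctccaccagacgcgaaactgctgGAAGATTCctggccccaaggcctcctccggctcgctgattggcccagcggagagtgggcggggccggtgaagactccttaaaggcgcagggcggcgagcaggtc
Hspa1b: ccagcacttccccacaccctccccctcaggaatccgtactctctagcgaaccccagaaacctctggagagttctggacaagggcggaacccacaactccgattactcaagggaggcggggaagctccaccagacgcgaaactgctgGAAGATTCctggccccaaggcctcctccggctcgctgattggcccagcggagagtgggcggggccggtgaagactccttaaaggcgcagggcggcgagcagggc

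Also given are 60 bases around elements of heat shock genes not called higher on their representative probe set, picked as examples. They are from Dnaja1 (chr4:40722318-40722377, plus strand), Hspb1 (chr5:135887796-135887855, plus strand), Hspd1 (chr1:55088041-55088100, minus strand) and Dnajb6 (chr5:29735828-29735887, plus strand), in the same build. Capitals mark the same 2-unit matches. In Hspd1 and Dnajb6 the matches overlap and form the longer element of 3 units, GAANNTTCNNGAA or TTCNNGAANNTTC.
Dnaja1: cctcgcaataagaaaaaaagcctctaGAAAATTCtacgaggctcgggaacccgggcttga
Hspb1: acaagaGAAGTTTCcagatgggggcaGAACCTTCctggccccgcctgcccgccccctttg
Hspd1: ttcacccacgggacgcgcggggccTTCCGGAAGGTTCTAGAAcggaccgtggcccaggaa
Dnajb6: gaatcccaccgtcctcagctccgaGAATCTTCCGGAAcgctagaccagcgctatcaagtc

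All values below are log2 expression values made by the authors with RMA, 1 per probe set and array, and a difference is the null pool minus the control pool. A gene was called higher or lower when limma's adjusted p over all probe sets was under 0.05 and the difference was at least 1.5-fold. Each gene was described by a representative, the probe set whose mean was highest. The medians of the control arrays were both 6.03, and those of the null arrays 6.10 and 6.09. Cop1 itself read 11.35 and 11.26 in the control portions and 9.67 and 9.77 in the null portions, though whether its probes lie in the removed exons was not examined. Of 21 measured markers of embryonic tissues, 4 rose and 2 fell, against 3.58% and 8.06% of all genes. Krt18 (0.87), Krt8 (0.78), Kdr (0.74) and Pecam1 (0.72) rose. Tcf15 (-0.64) and the neural gene Nes (-0.64) fell. Sox2 and Pax6 differed by -0.13 and -0.24 without a call. The globins Hba-x and Hbb-bh1 of primitive red cells read between 14.30 and 14.39, and the neural gene Sox2 and the heart gene Myl7 between 11.12 and 11.31, far above the array medians on all 4 arrays. Markers of placenta, decidua and yolk sac gave 1 rise (Cubn) and 3 falls among 9. The falls were those of Alb (-2.09), Ttr (-1.53) and Afp (-1.01), while Rbp4 and Apoa1 differed by -0.11 and -0.01 without a call. The log2 of the summed linear values of all 9 was 12.24 and 12.29 in the control portions and 11.33 in both null portions. Afp, the brightest of the 9, alone read 11.82 and 11.86 in the control and 10.84 and 10.81 in the null portions. Whether tissues of the embryo itself also gave the signals of these genes was not tested. The placental genes Prl3c1, Prl8a2 and Tpbpa read between 3.25 and 3.65 on every array, below the lower quartile of all probe sets, which was 4.39 to 4.47. The share of placenta, decidua and yolk sac in the differences below was not tested. In RNA of whole embryos, fewer cells of a type and less RNA per cell cannot be told apart.

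Among the 74 genes, 6 were called higher and 7 lower in the null pool. The 6 higher genes are 8.11% of the members, against 3.58% of all genes called higher, and the 7 lower genes are 9.46%, against 8.06% of all genes called lower. Of the 6, Dnajc18 was also called lower on another probe set, and Hspb11 is a family member by name only. Hspa1a and Hspa1b may share a signal through cross-hybridization. Centring the arrays on their medians gave 5 higher and 9 lower, and centring them on the poly-A spikes, control RNAs added during labelling, gave 3 and 15 while moving the median of all genes from -0.02 to -0.26. The shares of all genes called after these centrings were not computed. In the main run the median difference was -0.10 over the members and -0.02 over all genes. Over all 170 member probe sets, 19 were called higher (11.2%) and 16 lower (9.41%), against 6.76% and 6.96% of all probe sets. An adjusted p under 0.05 was reached by 38 member genes (51.4%, against 33.9% of all genes), and of the 25 that lay under the fold limit 18 were negative and 7 positive. Those are 24.3% and 9.46% of the members, against 13.8% and 8.46% of all genes in the same range. The member genes had medians of 8.36 to 8.54 on the arrays, above the 6.03 to 6.10 of all probe sets. Shares of all genes at matched brightness were not computed. The plot of the called genes shows the 6 rises, of Hspa1a, Hspa1b, Dnajc18, Dnajc21, Hspb7 and Hspb11, and the 7 falls, of Dnaja1, Dnajb1, Dnajb5, Dnajc6, Hspa12a, Hspb3 and Hsph1.

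**Figure D1:**
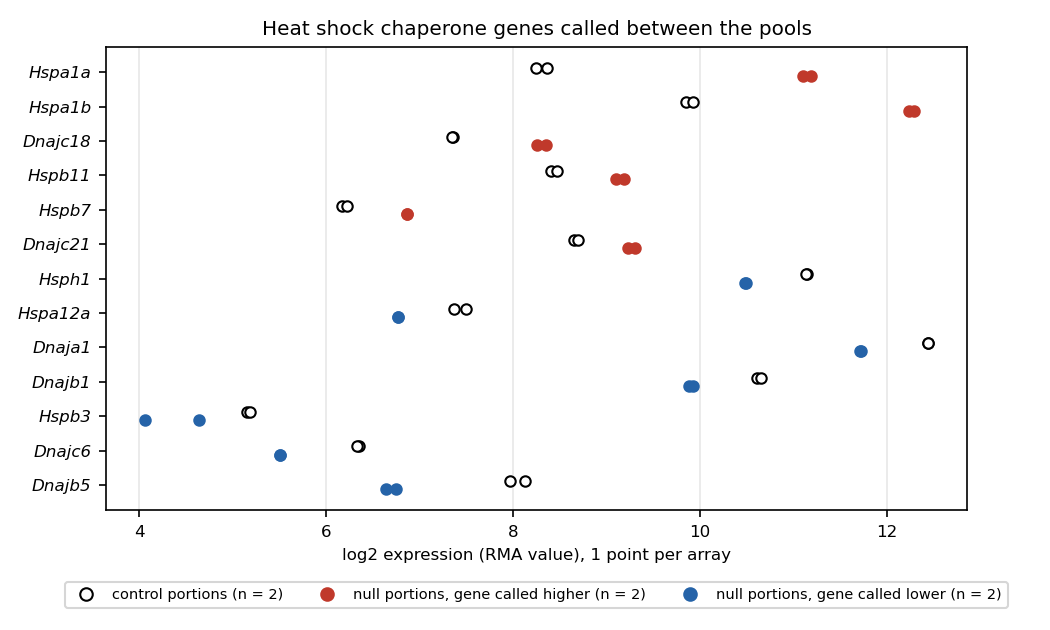
Log2 expression on each of the 4 arrays for the 13 member genes called between the pools, with open circles for the 2 control portions and filled circles for the 2 null portions. Hspa1a and Hspa1b lie furthest to the right of their controls, by 2.85 and 2.37 log2 units, and Dnajb5 furthest to the left, by 1.36.

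The inducible HSP70 genes rose. Hspa1a, the HSP70 made on demand after protein damage, read 8.24 and 8.36 in the control portions and 11.19 and 11.10 in the null portions. Both null arrays lay far above both control arrays. The means were 8.30 ± 0.08 and 11.14 ± 0.06 (SD, n = 2 portions), a rise of 2.85 log2 units (SE 0.08) or 7.20-fold (limma, adjusted p = 0.000549). Hspa1b, its near-identical neighbour, read 9.85 and 9.93 in the control portions and 12.29 and 12.24 in the null portions on its representative probe set. It rose by 2.37 (SE 0.07), 5.18-fold (limma, adjusted p = 0.000549). The other Hspa1b probe sets gave 2.53 each, so all 3 were called. Since the 2 genes are near-identical copies, cross-hybridization may let each probe set read both transcripts, and how the increase divides between them is uncertain.

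None of the other 7 HSP70 genes was called higher on its representative in limma. Hspa1l, the third gene of the same cluster and a testis form, read 4.23 and 4.22 in control and 3.96 and 3.94 in null portions, at the dim end of the array. Its difference of -0.27 (SE 0.06, limma, adjusted p = 0.0273) lay under the fold limit. Hspa2, another testis form, differed by -0.21 (SE 0.11) without a call.

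Hspa8, the constitutive HSP70 that serves folding, import and clathrin uncoating, gave opposite readings. Its representative probe set read 13.88 and 13.90 in the control portions and 13.54 and 13.46 in the null portions. The difference of -0.39 (SE 0.07, limma, adjusted p = 0.0117) was 1.31-fold, under the fold limit, and another pair of probe sets gave -0.36 and -0.37. The fourth probe set went the other way, from 7.99 and 7.88 to 9.78 and 9.92. That is a rise of 1.91 (SE 0.08) or 3.77-fold (limma, adjusted p = 0.000665). Which part of the transcript each probe set reads was not examined.

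Of the divergent HSP70 genes 1 fell. Hspa12a, a distant HSP70 relative, read 7.37 and 7.50 in the control portions and 6.77 in both null portions. It fell by 0.66 (SE 0.07, limma, adjusted p = 0.00376), and a second probe set fell by 0.73. Of its remaining probe sets, 1 read 0.51 and 1 read -0.46, neither called. Hspa12b, known from endothelium, read 7.30 and 7.46 against 6.79 and 6.82, a difference of -0.58 (SE 0.08, adjusted p = 0.0068 in limma) just outside the fold limit. In the same arrays the endothelial genes Kdr and Pecam1 rose by 0.74 and 0.72, while Cdh5 differed by 0.16 without a call.

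Hspa14, an HSP70 that works at the ribosome together with the J protein Dnajc2, was higher on all 3 of its probe sets. The representative read 10.38 and 10.37 against 10.81 and 10.80, a difference of 0.43 (SE 0.06, adjusted p = 0.007 in limma) under the fold limit. A second probe set read 7.16 and 7.01 against 8.38 and 8.30 and rose by 1.25 (SE 0.08), 2.38-fold. Dnajc2 itself differed by -0.05. Hspa13, an HSP70 of the endoplasmic reticulum that the naming rule kept in, differed by -0.27 (SE 0.08, limma, adjusted p = 0.0605).

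The exchange factors of the HSP110 group had 1 fall among 3 genes, where 8.06% of all genes were called lower. Hsph1, a heat-inducible HSP110, read 11.14 and 11.13 in control portions and 10.48 and 10.49 in null portions. It fell by 0.65 (SE 0.06, limma, adjusted p = 0.00241), 1.57-fold, and its other probe set fell by 0.77. The portions of each pool nearly coincided and the pools did not overlap. Hspa4 differed by -0.10 (SE 0.07) on its representative, while another of its 4 probe sets read -0.57 (limma, adjusted p = 0.00692), just outside the fold limit. Hspa4l differed by 0.11 (SE 0.06) without a call.

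Cytosolic HSP90 showed no call. Hsp90aa1, its inducible form, read 13.39 and 13.44 in the control portions and 13.33 and 13.32 in the null portions, a difference of -0.09 (SE 0.06, limma, adjusted p = 0.363). Its 5 probe sets lay between -0.09 and 0.34, and none was called. Hsp90ab1, Hsf1 and Dnajc19 had no probe set assigned to them alone in the annotation used and were not analysed here.

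Mitochondrial chaperones went in both directions, with 0 calls in limma among 7 genes and a median of -0.13. At an unadjusted p under 0.05, 1 of them was positive and 2 were negative, where 16.8% of all genes were positive and 27.5% negative. Hspa9, the HSP70 of the matrix that pulls proteins through the import channel, read 11.37 and 11.39 against 11.84 and 11.83. The difference of 0.46 (SE 0.06, adjusted p = 0.00599 in limma) lay under the fold limit, and 3 of its other 4 probe sets were also higher, by 0.27 to 0.37. Hspd1, the large subunit of the folding chamber, read 13.01 and 12.99 against 12.69 on both null arrays, a difference of -0.31 (SE 0.06, limma, adjusted p = 0.0185). Its partner Hspe1, transcribed from the same intergenic stretch in the opposite direction, differed by -0.04 (SE 0.06). Dnajc15, a J protein at the import channel, read 9.96 and 10.01 against 9.46 and 9.35, and its difference of -0.58 (SE 0.07, limma, adjusted p = 0.00525) stopped just short of 1.5-fold. Dnaja3, a J protein of the matrix, differed by 0.12 (SE 0.06) without a call.

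**Figure D2:**
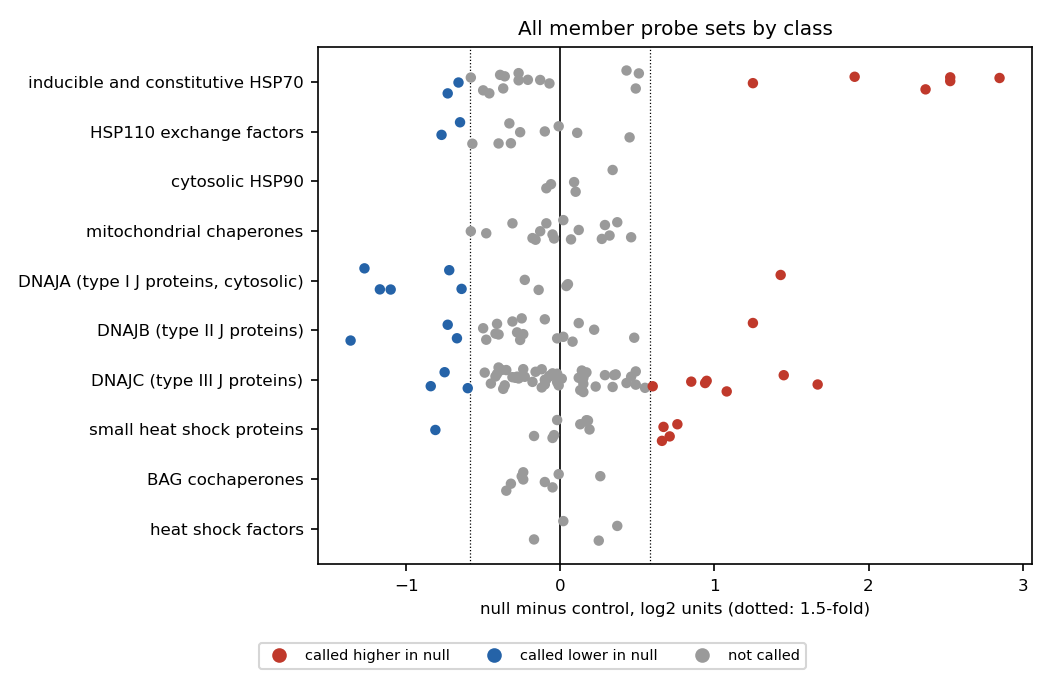
Difference between null and control pool in log2 units for each of the 170 member probe sets, grouped by class, with dotted lines at 1.5-fold. The points furthest to the right are Hspa1a and Hspa1b. DNAJA holds 5 called lower and 1 called higher among 10 probe sets, against 6.96% and 6.76% of all probe sets. Of these 5, 3 belong to Dnaja1.

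Of the 3 cytosolic DNAJA genes, 1 fell and 0 rose, against 8.06% and 3.58% of all genes. Of their 10 probe sets, 5 were called lower and 1 higher, against 6.96% and 6.76% of all probe sets. Dnaja1, a main partner of Hspa8, read 12.44 in both control portions and 11.72 and 11.71 in the null portions. It fell by 0.72 (SE 0.06, limma, adjusted p = 0.00192), 1.65-fold, and its other probe sets fell by 1.17 and 1.10. All 3 probe sets were called lower. Dnaja2, a close relative, gave both directions. One probe set fell from 8.74 and 8.78 to 7.42 and 7.56, by 1.27 (SE 0.08), and another rose from 7.52 and 7.57 to 8.96 and 8.98, by 1.43 (SE 0.06). The representative differed by -0.14 (SE 0.06, limma, adjusted p = 0.154), so no direction can be given for the gene. Dnaja4 fell on 1 of 3 probe sets, by 0.64 (SE 0.08), and the representative read 0.05.

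Of the 11 DNAJB genes, 2 fell and 0 rose in limma, against 8.06% and 3.58% of all genes. Their median was -0.28, and 8 were negative and 0 positive at an unadjusted p under 0.05, against 27.5% and 16.8% of all genes. Dnajb5, a J protein of the cytosol that also acts on class II histone deacetylases, read 7.97 and 8.13 in control portions and 6.64 and 6.75 in null portions. It fell by 1.36 (SE 0.09, limma, adjusted p = 0.00115), 2.56-fold, the furthest fall among the member genes. Its other 2 probe sets read -0.67, which was called, and -0.48. Dnajb1, the classical heat-induced HSP40, read 10.61 and 10.65 against 9.88 and 9.92 and fell by 0.73 (SE 0.06, adjusted p = 0.0021 in limma). Its second probe set read 9.75 and 9.83 against 9.88 and 9.94, a difference of 0.12 (SE 0.07, limma, adjusted p = 0.25). The fall of Dnajb1 therefore rests on 1 of its 2 probe sets.

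Dnajb6, which keeps aggregation-prone proteins soluble and is needed for the mouse placenta, split in a similar way to Hspa8. The representative read 11.23 in both control portions and 11.00 and 10.98 in the null portions (-0.24, SE 0.06), under the fold limit. Another probe set rose from 5.73 ± 0.19 to 6.98 ± 0.03 (SD, n = 2 portions), by 1.25 (SE 0.11, limma, adjusted p = 0.002). Dnajb4, another heat-inducible J protein, read -0.28, -0.25 and -0.40 on its 3 probe sets, all with an adjusted p under 0.05 and none at 1.5-fold. Dnajb12 and Dnajb14, J proteins of the membrane of the endoplasmic reticulum, differed by -0.42 (SE 0.10) and -0.31 (SE 0.08) without a call, and a second probe set of Dnajb12 read 0.48.

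The DNAJC genes, the most varied branch, held 2 rises and 1 fall among 23, against 3.58% and 8.06% of all genes. Their median was -0.05. Dnajc21, which acts in maturation of the large ribosomal subunit, read 8.65 and 8.69 against 9.23 and 9.30 and rose by 0.60 (SE 0.07, limma, adjusted p = 0.00377), just inside the fold limit. The call was kept after a further quantile normalization (0.66) and lost with median centring (0.53), with poly-A centring (0.36), and without control replicate 1 (0.58) or null replicate 2 (0.56). Its other 4 probe sets lay between 0.12 and 0.49 with no call. Dnajc18 rose by 0.95 (SE 0.07) on 1 probe set, from 7.36 and 7.35 to 8.26 and 8.35, and fell by 0.75 (SE 0.07) on another, from 7.38 and 7.27 to 6.60 and 6.54. As for Dnaja2, its calls contradict each other and give the gene no direction. Dnajc6, the auxilin that strips clathrin from vesicles, fell from 6.35 and 6.33 to 5.50 on both null arrays, by 0.84 (SE 0.06, limma, adjusted p = 0.00143). Its other 3 probe sets lay at 3.17 to 3.75 on every array, at the dim end, and read -0.10 to 0.13.

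More DNAJC genes were called only on a probe set that did not represent them. Dnajc5, the cysteine string protein of synaptic and other secretory vesicles, was positive on all 5 probe sets. The representative differed by 0.36 (SE 0.07, adjusted p = 0.018 in limma), and another pair rose by 1.08 and 0.85. Dnajc1, a J protein of the endoplasmic reticulum membrane, rose by 1.67 and 1.45 on 2 probe sets and differed by 0.55 (SE 0.11, limma, adjusted p = 0.0184) on the representative. Its remaining 3 probe sets read 0.49, -0.28 and -0.16. Dnajc13, a J protein of endosomes, differed by -0.38 (SE 0.06) on the representative and rose by 0.94 (SE 0.14) on the other probe set. Dnajc24, a protein of diphthamide synthesis, differed by -0.18 on the representative and fell by 0.60 on the other probe set. Among those without a call, Dnajc9, a histone chaperone of replication, read 11.33 and 11.34 against 10.83 and 10.84 (-0.49, SE 0.06, limma, adjusted p = 0.00489). Dnajc10, a J protein and disulfide reductase of the endoplasmic reticulum, read -0.31, -0.40 and -0.41 on its 3 probe sets.

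Probe sets of the same member gene could disagree. Of the 45 member genes with several probe sets, 23 had differences of both signs, and in 8 of them the largest and smallest difference were over 1 log2 unit apart. These 8 were Dnaja2, Dnajb6, Dnajc1, Dnajc13, Dnajc18, Hspa12a, Hspa4 and Hspa8. Among the 96 probe sets that did not represent their gene, 13 were called higher and 9 lower, while the 74 representatives gave 6 and 7. The same counts over all genes with several probe sets were not made. Of all probe sets, 6.76% were called higher and 6.96% lower. The signs include those of dim probe sets, such as 1 of Dnaja3 at 3.56 to 3.84, where a sign carries little weight. In all, 22 member genes had a called probe set, and 2 (Dnaja2 and Dnajc18) had calls of both directions. The shares of all genes with such calls were not computed. When all probe sets of a gene were averaged, the calls of Dnajb1 (-0.30), Dnajc18 (0.11), Dnajc6 (-0.21), Dnajc21 (0.36), Hspa12a (-0.33) and Hspb11 (0.42) were lost, and those of Dnajc1 (0.62), Dnajc5 (0.59) and Hspa14 (0.73) were gained. The plot of the 8 genes shows lines of opposite slope within Dnaja2, Dnajc18 and Hspa8.

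Small heat shock proteins gave 2 rises and 1 fall among 8 genes, against 3.58% and 8.06% of all genes. Their median was 0.17. Hspb7, a chaperone of heart muscle, rose on all 3 of its probe sets. The representative read 6.17 and 6.22 against 6.86 on both null arrays and rose by 0.66 (SE 0.06, limma, adjusted p = 0.00255), and the others rose by 0.67 and 0.76. With poly-A centring its difference was 0.43 (limma, adjusted p = 0.065) and the call was lost. Hspb3, known from skeletal and heart muscle, read 5.15 and 5.18 in the control portions and 4.64 and 4.06 in the null portions. It fell by 0.81 (SE 0.19, limma, adjusted p = 0.0334), with the widest gap between null portions among the called genes, and 1 null value lay below the lower quartile of its array. Without control replicate 1, control replicate 2 or null replicate 2 it lost its call, at -0.82 (adjusted p = 0.135), -0.80 (adjusted p = 0.147) and -0.52 (adjusted p = 0.036) in limma. Heart muscle markers gave 2 rises, Nppa (1.49) and Myh7 (1.20), and 2 falls, Myl2 (-0.80) and Tnni1 (-0.75), among 13, with a median of -0.05. Of all genes, 3.58% were called higher and 8.06% lower. All 13 read above the array medians on every array, and the log2 of their summed linear values was 14.22 and 14.21 in the control portions and 14.27 in both null portions. The part of heart tissue in the values of Hspb7 and Hspb3 was not tested.

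Hspb11, which is named with this family but is a subunit of the intraflagellar transport complex of cilia, read 8.40 and 8.47 against 9.19 and 9.10. It rose by 0.71 (SE 0.07, limma, adjusted p = 0.00292), and its second probe set read 0.13. With poly-A centring the difference was 0.48, under the fold limit. Hspb1, the widely expressed and heat-inducible HSP27, read 9.96 ± 0.06 (SD, n = 2 portions) against 10.13 on both null arrays, a difference of 0.17 (SE 0.07, limma, adjusted p = 0.116). Hspb8, the partner of Bag3, differed by -0.05 (SE 0.07). Hspb2, Hspb6 and Hspb9 differed by -0.17, 0.18 and 0.17 without a call.

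None of the 6 BAG genes was called in limma, and their median was -0.14. At an unadjusted p under 0.05, 1 was positive and 3 were negative, against 16.8% and 27.5% of all genes. Bag3, the heat-inducible cochaperone of selective autophagy, read 8.42 and 8.34 against 8.38 and 8.29, so the portions of the pools overlapped (-0.05, SE 0.07, limma, adjusted p = 0.692). Bag5 and Bag1 differed by -0.32 (SE 0.06, limma, adjusted p = 0.0171) and -0.25 (SE 0.06, limma, adjusted p = 0.0386), and Bag6 by -0.01. Bag4 read 0.26 on its representative and -0.35 on a second probe set. Of the heat shock factors, Hsf2 read 4.86 and 4.69 against 5.14 and 5.15 (0.37, SE 0.08, limma, adjusted p = 0.0253), under the fold limit. A second Hsf2 probe set read -0.17 (SE 0.18, limma, adjusted p = 0.524). Both lay below the array medians on every array, where a difference carries little weight. Hsf5 and Hsf4, both known from narrow sets of tissues, differed by 0.25 and 0.02.

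Among the 60 measured genes of the chaperone system outside these families, 1 was called higher (1.67%) and 2 lower (3.33%), against 3.58% and 8.06% of all genes. Over all their 133 probe sets, 7 were called higher and 8 lower, against 6.76% and 6.96% of all probe sets. Among 21 measured cochaperones of HSP90 and HSP70, 1 fell and 0 rose in limma, with a median of -0.20, and 11 were negative and 2 positive at an unadjusted p under 0.05, against 27.5% and 16.8% of all genes. The fall was that of Ahsa2 (-0.59, SE 0.07), an activator of the HSP90 ATPase, from 9.99 and 9.91 to 9.38 and 9.34. The call was lost after a further quantile normalization (-0.54) and without control replicate 1 (-0.55) or null replicate 2 (-0.57). Its relative Ahsa1 gave both directions, with -0.51 (SE 0.06, limma, adjusted p = 0.00502) under the fold limit on the representative and a rise of 1.07 (SE 0.08, limma, adjusted p = 0.00145) on the other probe set. Unc45b, the chaperone of muscle myosin, differed by -0.55 (SE 0.07), under the fold limit. Cdc37, which brings kinases to HSP90, and Unc45a fell by 0.74 and 0.69 on a probe set that did not represent them. Among 10 measured regulators of HSF1 and other heat shock genes, 1 fell and 0 rose in limma, with a median of -0.17. At an unadjusted p under 0.05, 5 were negative and 0 positive, against 27.5% and 16.8% of all genes. The list includes Cirbp, by name a cold-inducible protein, at -0.40 (SE 0.08, limma, adjusted p = 0.017), under the fold limit. The counts of this list therefore give no direction of a heat response. Ier5, which activates HSF1, fell by 0.86 (SE 0.06, limma, adjusted p = 0.00146), from 9.09 and 9.10 to 8.27 and 8.21, and 1 of its other 2 probe sets fell by 1.20. Cryab, a small heat shock protein by structure, differed by -0.09. Vcp, a segregase of ubiquitinated proteins, and Sqstm1, an autophagy receptor, rose by 1.36 and 0.86 on a probe set that did not represent them, while their representatives differed by -0.26 and 0.13.

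TRiC, which folds actin and tubulin, and prefoldin, which feeds it, had 0 calls among 15 genes in limma and a median of 0.01, with 3 positive and 3 negative at an unadjusted p under 0.05, against 16.8% and 27.5% of all genes. The largest of these differences, in Pfdn2, was 0.40 (SE 0.06, adjusted p = 0.00913 in limma). Of the 36 probe sets of these genes, 1 of Cct3 rose (0.65) and 1 of Cct4 fell (-0.61). Mitochondrial folding factors and proteases gave 1 rise and 0 falls among 14 in limma, with a median of 0.20, and 7 were positive and 2 negative at an unadjusted p under 0.05, against 16.8% and 27.5% of all genes. The rise was that of Lonp1, the main protease of the matrix, from 9.81 and 9.77 to 10.48 and 10.44 (0.67, SE 0.06, limma, adjusted p = 0.00252). With poly-A centring it differed by 0.43 (limma, adjusted p = 0.0604) and the call was lost. On probe sets that did not represent their gene, Clpx (1.29) and Yme1l1 (1.02) rose, and Grpel2 (-1.02) and Dnlz (-0.88) fell. Trap1, the mitochondrial HSP90, differed by 0.28 (SE 0.07), and Grpel1, the exchange factor of Hspa9, by -0.44 (SE 0.07), both under the fold limit.

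**Figure D3:**
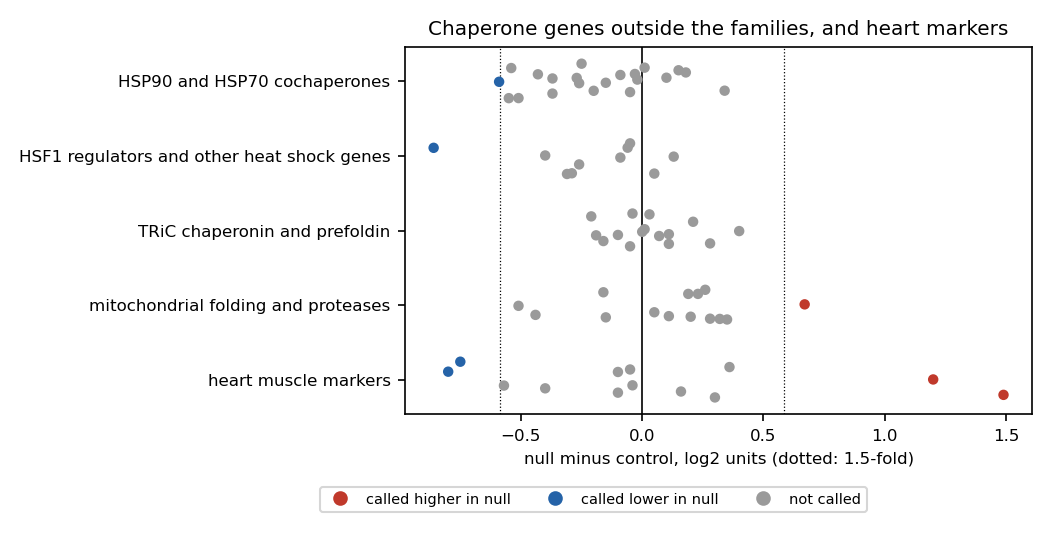
Difference between null and control pool in log2 units for the representative probe set of each measured gene of 4 groups outside the chaperone families and of the heart muscle markers, with dotted lines at 1.5-fold. Ier5 (-0.86) and Ahsa2 (-0.59) lie past the lower limit and Lonp1 (0.67) past the upper one.

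Heat shock elements were searched for on both strands in RefSeq windows of 300 bases, 250 before and 50 after each start. Such windows were matched for 59 of the 74 genes. The search took exact letters only, so elements with a mismatched unit, also in Hspa1a and Hspa1b, were not counted. The 2-unit element GAANNTTC or TTCNNGAA stood in a window of 18 of them (30.5%), against 17.0% of all genes in the table. The 3-unit element, whose matches also count as 2-unit matches, stood in 4 (6.78%), against 0.662% of all genes. Those 4 were Hsph1, which fell, and Dnajb6, Hspd1 and Hspe1, which were not called on their representatives. The windows of Hspd1 and Hspe1 overlap and hold the same element, so the same bases are counted for both genes. Of the 18 genes with a 2-unit element, Hspa1a and Hspa1b rose, Dnaja1, Hspb3 and Hsph1 fell and 13 were not called, and their median difference was -0.05. The 41 genes without one held 3 rises and 4 falls, with a median of -0.14. Genes with these letters near the start were thus found among rises, falls and genes without a call, and no match says only that the letters are missing from this window.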

How the data were processed

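The values analysed were the log2 expression values that the authors deposited for 4 Affymetrix arrays. The submitters' processing notes name RMA and affy, without versions. RMA normalizes the arrays to each other, which hides any change in total RNA. Of 45101 probe sets, 64 Affymetrix controls were left out. The platform table gave 1 gene for 34945 of the 45037 tested, several for 932 (no name used) and none for 9160. All 170 member probe sets matched RefSeq by gene number, with 0 symbols changed.

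The null pool was compared with the control pool using limma 3.58.1 in R 4.3.3 (lmFit, eBayes, genotype as the only term), with Benjamini-Hochberg adjustment over all 45037 probe sets. A call needed an adjusted p under 0.05 and at least 1.5-fold. The fit was tested on data simulated with the spread between portions. With 1 RNA pool per genotype, that test cannot cover the spread between embryos. The number of arrays limits the precision of the difference between these pools, and more arrays of the same pools would not measure differences between embryos. Hspb11 was placed among the small heat shock proteins after its values were seen. Members, lists and tests were chosen with earlier results of these data known. Named were genes with a called probe set, core chaperones whatever their values, the 2 largest changes of a class without calls, up to 4 called genes of each outside list, and members at the fold limit. Other genes were named after their values were seen. Alternatives covered scaling, dim probe sets, each array left out, gene averages, an intensity trend, a replicate block and the fold limit.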

Additional observations from a re-analysis of the deposited data

How the results depend on the processing

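Of the 13 called genes, Dnaja1, Dnajb5, Hspa1a, Hspa1b and Hsph1 passed both limits in every alternative run, and no called difference reversed. Without the fold limit, 13 member genes were higher and 25 lower, 36 and 51 probe sets, 8 and 16 genes of the 4 outside lists, and 4 and 4 heart markers. Centring on poly-A spikes gave 3 and 15 member genes, 39 lower probe sets, a median of -0.33, 0 and 11 outside genes and 4 lower heart markers. The spikes themselves read 7.40 and 7.64 in the control and 7.67 and 7.83 in the null portions. Centring on array medians gave a median of -0.16 and 4 lower outside genes. A further quantile normalization gave -0.07 and 1 lower outside gene, and gene averages gave 4 lower member genes, a median of -0.07 and 2 higher outside genes. The cause of these shifts was not tested. Without the fold limit, 33.9% of all genes and 32.7% of all probe sets passed, both directions together. For the other alternatives, the shares of all genes or probe sets called were not computed. Their counts therefore cannot be compared with those of all genes. Leaving out 1 array at a time gave 5 to 7 higher and 6 to 8 lower member genes, 16 to 20 and 14 to 18 probe sets, and medians from -0.12 to -0.10. With the replicate block, 6 and 7 member genes and 18 and 16 probe sets were called, and 1 Hspb7 probe set lost its call (0.67, limma, adjusted p = 0.0605). The deviations of same-numbered portions correlated at 0.0563. Whether these portions shared a processing batch cannot be told from 2 portions per pool. Leaving out the dimmest 40% of probe sets dropped Hspb3. With 1 RNA pool per genotype, differences between embryos of a genotype remain unmeasured, and dim probe sets give only weak evidence of a level.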
